A study of Mus musculus with 6 samples.

Results

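The CDK inhibitors and the BTG/TOB genes are brakes on cell division. Of these, 10 genes chosen by name were followed here among the 19323 genes of a deposited table of normalized counts: the CIP/KIP genes Cdkn1a, Cdkn1b and Cdkn1c, the INK4 genes Cdkn2a, Cdkn2c and Cdkn2d, and the antiproliferative genes Btg1, Btg2, Tob1 and Tob2. All 10 were found by matching Ensembl identifiers to symbols. RNA had been sequenced from primary CD8+ T cells of the spleens of wild-type (WT) C57BL/6 mice. From the age of 6 weeks the mice had received ND or MCDHFD, the labels' names of the diets, for 7 weeks; the study models MASH, an inflammatory form of fatty liver disease. Each diet had 3 libraries. Whether each library is a different animal is not said, and the p-values therefore cover only the spread between these libraries, which may be technical.

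CIP/KIP proteins bind cyclin-CDK complexes, mainly those of CDK2, while INK4 proteins bind CDK4 and CDK6 and keep D-type cyclins from activating them. Both routes hold the retinoblastoma protein in the form that silences E2F target genes. BTG and TOB proteins act on RNA: they join the CCR4-NOT deadenylase, which shortens poly(A) tails, and in T cells Btg1 and Btg2 are known for their part in keeping resting cells quiescent. Tob1 is likewise known as a restraint on T cell activation.

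The table's libraries held 14119816 to 14752121 normalized counts. The 13430 genes averaging 10 normalized counts or more were tested with limma on log2(normalized count + 1), and fold changes below are on that scale. Genes that define CD8 T cells, the labelled cell type, were present in all libraries but lower in MCDHFD: the 19 listed genes, led by Lck and Cd8a, made up 0.817% to 0.823% of all normalized counts in the ND libraries and 0.382% to 0.430% in the MCDHFD libraries. The summed share of 22 monocyte and macrophage genes, led by Hmox1 and Vcam1, was 0.433% to 0.520% in ND and 2.02% to 2.44% in MCDHFD. In limma 19 of them were higher and 2 lower, namely Ccr2 (log2 fold change -0.62) and Ly6c2 (-0.88), and Lyz2 (-0.19) did not pass. Erythroid genes had a higher share in MCDHFD as well (0.0294% to 0.0313%, then 0.123% to 0.194%). So had neutrophil genes (0.0133% to 0.0184%, then 0.0874% to 0.145%). The list written for dendritic cells, led by Cd74 and Ccr7, had a lower share (0.456% to 0.498%, then 0.199% to 0.209%). Of its 13 genes, 11 were lower and 2 higher in limma. That share is not a measure of dendritic cells alone, since B cells and macrophages also express Cd74 and T cells express Ccr7. Mean normalized counts of Ccr7 went from 16304 to 10824, and those of the far less abundant Xcr1 and Clec9a from 294 to 31.0 and from 419 to 84.3. Of 13 B cell genes, 11 were lower and 1 higher, with a summed share of 0.145% to 0.160%, then 0.124% to 0.142%. No gene of these marker lists was at 0 in all libraries of a diet. The part of these shares in the results below was not tested, and in bulk RNA a change in the number of cells of a type cannot be told apart from a change in RNA per cell.

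Of the 10 genes, 9 were abundant enough to be tested. Under the deposited scaling Cdkn1a rose 2.07-fold in MCDHFD, Btg1 fell by 33.9% and Tob2 by 29.4%; the falls, but not the rise, turned around when CD8 T cell genes were held equal between libraries, as described further on. The other 6, Cdkn1b, Cdkn1c, Cdkn2c, Cdkn2d, Btg2 and Tob1, did not pass. So 1 of the 9 was higher and 2 were lower in limma at an adjusted p under 0.05, 33.3% of them together. Of all 13430 tested genes, 58.4% passed, 30.3% higher and 28.1% lower. The median size of change, taken without sign, was 0.17 on the log2 scale for the 9 genes and 0.40 for all tested genes. The diets did not overlap in 4 of the 9, these 3 and Cdkn2d, against 65.4% of all tested genes.

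**Figure D1:**
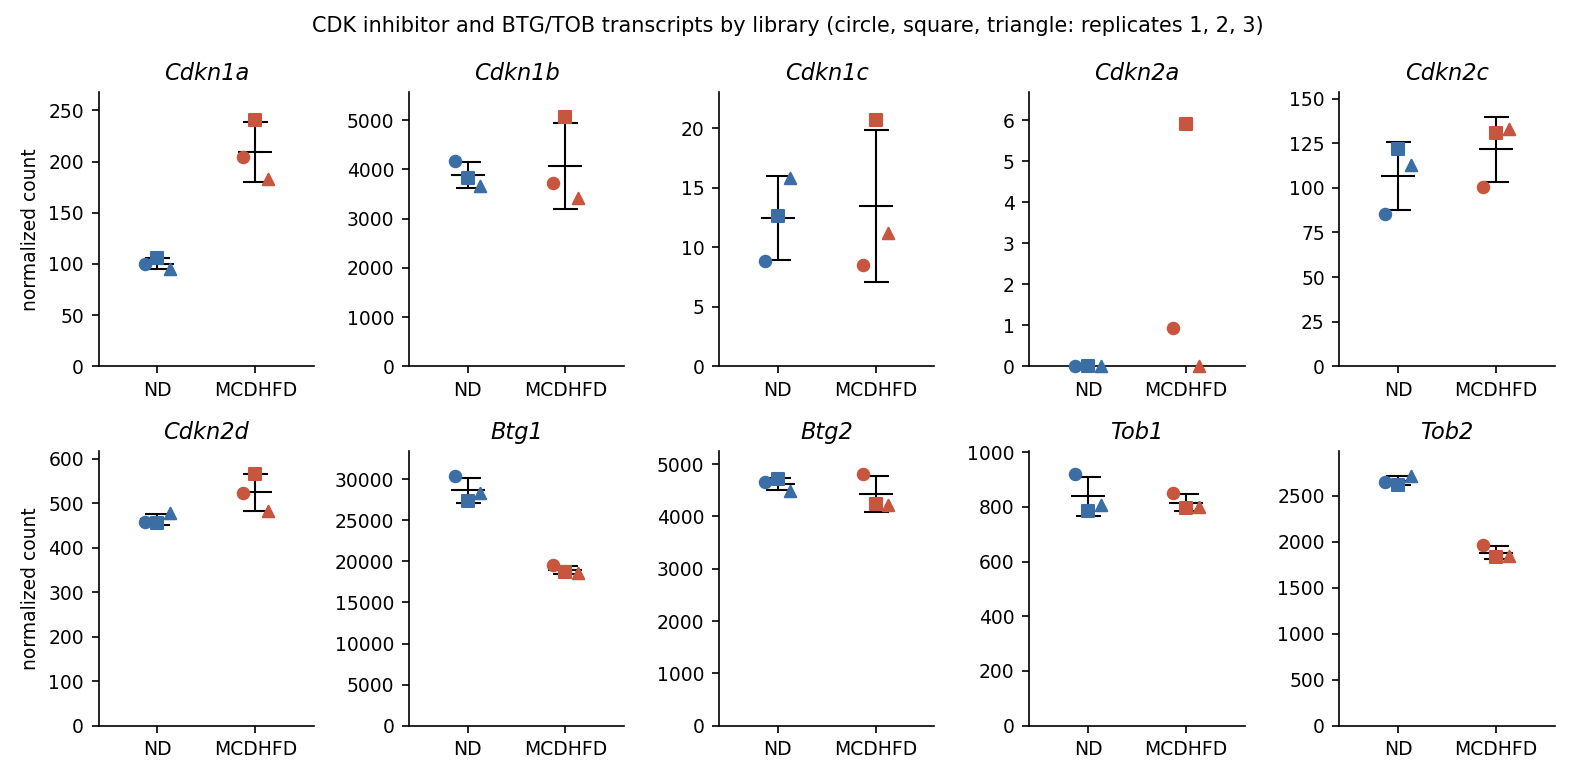
Normalized counts (vertical axes, each starting at 0) of the 10 genes in the 3 ND (blue) and 3 MCDHFD (red) libraries; horizontal ticks are means and bars are ± 1 SD, left out for Cdkn2a. On this deposited scaling, which the CD8 T cell scaling turns around for Btg1 and Tob2, Cdkn1a lies higher in every MCDHFD library, Btg1 and Tob2 lie lower, and replicate 2 of MCDHFD is the highest point for Cdkn1a, Cdkn1b, Cdkn1c, Cdkn2a and Cdkn2d.

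Cdkn1a encodes p21, the CDK inhibitor through which p53 arrests the cell cycle. Its gene (ENSMUSG00000023067) lies on chromosome 17, 29090976 to 29100727 on the plus strand of mm10. It has more than 1 annotated start, and the bases upstream of 2 of them are shown because Cdkn1a is the gene of the set that rose. The sequences are from RefSeq on GRCm38.p6, the assembly also called mm10, with capitals marking short motifs found by a search of both strands for 8 motifs. The end of the first window reaches into an annotated Cdkn1a exon, and the second overlaps an exon of AC167363.2, a gene model on the other strand.

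Cdkn1a, upstream start, chr17:29090729-29090978, plus strand: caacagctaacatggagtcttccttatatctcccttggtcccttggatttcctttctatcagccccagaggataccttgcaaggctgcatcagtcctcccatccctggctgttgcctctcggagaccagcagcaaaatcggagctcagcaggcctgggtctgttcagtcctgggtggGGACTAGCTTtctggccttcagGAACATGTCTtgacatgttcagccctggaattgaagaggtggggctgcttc
Cdkn1a, downstream start, chr17:29093519-29093768, plus strand: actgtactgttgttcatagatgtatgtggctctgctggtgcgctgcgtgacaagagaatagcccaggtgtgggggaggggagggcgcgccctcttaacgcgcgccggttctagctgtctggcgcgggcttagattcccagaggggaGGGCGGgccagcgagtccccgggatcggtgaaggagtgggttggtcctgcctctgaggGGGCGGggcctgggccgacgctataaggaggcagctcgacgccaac

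The capitals of the upstream window are 2 matches to the p53 half-site, a motif found in 7.13% of all 32851 promoter windows of this length. Those of the downstream window are 2 GC boxes (GGGCGG), found in 32.7% of windows. The E-box CACGTG (6.02% of windows) and the E2F core TTTGGCGC (0.417%) were in neither window, nor were the remaining 4 motifs, which are spelled out with Btg1 and Btg2. A match is only a stretch of letters, and no binding was measured.

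Cdkn1a was measured at 99.9, 106 and 95.02 normalized counts in the ND libraries and at 204, 241 and 183 in the MCDHFD libraries. Every MCDHFD library lay above every ND library. The mean went from 100.3 ± 5.52 to 209 ± 29.0 (SD, n = 3 per diet). On the log2 scale the difference was 1.05 with an SE of 0.13 (adjusted p = 0.00018 in limma). The 95% interval of the fold ran from 1.67 to 2.56. Of all tested genes, 20.3% had a larger change in either direction. The depth behind these values was 96 to 109 reads in the ND libraries and 164 to 245 reads in the MCDHFD libraries, and edgeR on the reads of 5 libraries, without ND replicate 3, called it too (log2 fold change 1.01, adjusted p = 0.00128), as it did 53.2% of the genes it tested. AC167363.2 overlaps Cdkn1a exons too, and because the strand setting of the counting is not given, reads from it cannot be told apart.

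Cdkn1b encodes p27, the CIP/KIP inhibitor typical of resting lymphocytes, and lies on chromosome 6. It was by far the most abundant of the CDK inhibitors. The ND libraries held 4178, 3823 and 3670.1 normalized counts and the MCDHFD libraries 3718, 5067 and 3428. The diets overlapped, and MCDHFD replicate 2 lay above all other libraries. The difference of 0.05 on the log2 scale (SE 0.13, 95% interval -0.25 to 0.34) did not pass in limma (adjusted p = 0.779). Without MCDHFD replicate 2 the log2 fold change was -0.12.

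The balance of related genes was also measured inside each library, where the scaling between libraries cancels; these ratios use the same values as the fold changes and are a description beside them, since the smallest p that 3 against 3 libraries allow is 0.1. The ratio of Cdkn1a to Cdkn1b was 0.0241, 0.0280 and 0.0262 in ND and 0.0552, 0.0477 and 0.0538 in MCDHFD. All 3 MCDHFD ratios exceeded all 3 ND ratios, by 1.001 on the log2 scale (SE 0.09). A two-sided exact permutation test gave p = 0.1 (adjusted p = 0.133 over the 4 pairs compared). Cdkn1b still made up 97.2% ± 0.255 of the summed CIP/KIP normalized counts in ND and 94.8% ± 0.281 in MCDHFD.

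Cdkn1c encodes p57, an imprinted CIP/KIP gene on chromosome 7, best known from embryonic tissues and stem cells. It was near the lower limit of the test. Its values were 8.81, 12.6 and 15.8 normalized counts in ND and 8.47, 20.6 and 11.2 in MCDHFD, which overlap. Its log2 fold change of 0.05 (limma adjusted p = 0.928) has a 95% interval from -0.89 to 0.99, so changes of nearly 2-fold in either direction lie within it. An antisense gene, Gm44732, overlaps its exons.

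Among the INK4 genes, Cdkn2d was the most abundant. Cdkn2d encodes p19 of the INK4 family and lies on chromosome 9. It was at 457, 455 and 477 normalized counts in ND and at 523, 565 and 483 in MCDHFD. The MCDHFD libraries were all higher, the lowest of them by little. The log2 fold change of 0.17 (SE 0.08) did not pass in limma (adjusted p = 0.0892). Without MCDHFD replicate 3 it was 0.23 and passed (limma adjusted p = 0.0473).

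Cdkn2c, which encodes p18 and lies on chromosome 4, was at 85.2, 122 and 113 normalized counts in ND and at 101, 131 and 133 in MCDHFD. The diets overlapped (log2 fold change 0.19, 95% interval -0.22 to 0.60, limma adjusted p = 0.386). The ratio of Cdkn2c to Cdkn2d overlapped as well, at 0.188 to 0.269 in ND and 0.194 to 0.277 in MCDHFD (two-sided exact permutation p = 0.8, difference of 0.02 on the log2 scale, SE 0.21).

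Cdkn2a, the gene of the senescence inhibitor p16 and of the p53 activator Arf, which share exons in different reading frames, was close to absent from the reads. It was at 0 in all 3 ND libraries and in MCDHFD replicate 3, at 0.941 normalized counts in MCDHFD replicate 1 and at 5.90 in MCDHFD replicate 2, which are 1 and 6 reads. A count of 0 allows up to 3 reads, or 2.92 to 3.36 normalized counts by library, so no difference was detectable at this depth and no fold is given. Such limits cover counting error only. Gene-level counts cannot separate the transcripts of p16 and Arf. Its neighbour Cdkn2b, the remaining INK4 gene and not one of the 10, was also below the test's minimum, at 5.87, 12.6 and 12.9 normalized counts in ND and 2.82, 0 and 4.47 in MCDHFD.

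Btg1 was the most abundant of the 10 genes and fell. The gene (ENSMUSG00000036478) lies on chromosome 10, 96617006 to 96622809 on the plus strand. Its paralog Btg2 (ENSMUSG00000020423) lies on chromosome 1, 134075170 to 134079120 on the minus strand. Their upstream sequences are given side by side because this pair of related genes moved unequally. So did Cdkn1a/Cdkn1b and Tob1/Tob2, whose windows are not set side by side.

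Btg1, chr10:96616751-96617000, plus strand: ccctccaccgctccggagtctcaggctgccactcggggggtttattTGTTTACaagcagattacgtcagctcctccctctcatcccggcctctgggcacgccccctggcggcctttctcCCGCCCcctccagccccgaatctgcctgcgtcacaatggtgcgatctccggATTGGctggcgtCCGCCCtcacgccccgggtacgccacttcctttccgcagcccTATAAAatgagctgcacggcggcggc
Btg2, chr1:134079156-134079405, minus strand: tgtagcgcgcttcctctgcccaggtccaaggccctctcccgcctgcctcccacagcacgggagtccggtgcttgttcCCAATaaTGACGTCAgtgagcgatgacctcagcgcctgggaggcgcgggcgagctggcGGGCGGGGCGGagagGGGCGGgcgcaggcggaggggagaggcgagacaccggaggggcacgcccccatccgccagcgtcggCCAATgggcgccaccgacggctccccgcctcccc

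In the Btg1 window the capitals are, in order, TGTTTAC, the core bound by FOXO factors (3.17% of windows hold it), a GC box read on the other strand, a CCAAT box read on the other strand (33.8%), a further GC box on the other strand, and TATAAA (12.4%), 26 bases before the start. In the Btg2 window they are a CCAAT box, TGACGTCA, the cyclic AMP response element (1.55%), 3 GC boxes of which 2 overlap, and a CCAAT box. Neither TGTTTAC nor TATAAA was found in the Btg2 window. The window of Tob2, which fell as Btg1 did, held neither, while that of Tob1, which did not pass, held TATAAA 47 bases before the start. A link between these motifs and the changes was not tested.

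Btg1 stood at 30337, 27389 and 28290.5 normalized counts in ND and at 19546, 18657 and 18608 in MCDHFD. Every MCDHFD library lay below every ND library. The mean went from 28672 ± 1511 to 18937 ± 528 (SD, n = 3 per diet). On the log2 scale this was -0.60 (SE 0.06, 95% interval -0.73 to -0.46), with an adjusted p in limma of 3.64e-05. Of all tested genes, 36.2% had a larger change in either direction. Btg1 made up 77.9% ± 0.759 of the summed normalized counts of the 4 BTG/TOB genes in ND and 72.7% ± 0.675 in MCDHFD. That sum was 36799 ± 1590 in ND and 26057 ± 973 in MCDHFD.

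Btg2, an immediate early gene and p53 target, did not follow. It was at 4665, 4717 and 4494 normalized counts in ND and at 4820, 4231 and 4218 in MCDHFD. MCDHFD replicate 1 lay above all ND libraries and the other two lay below them. The log2 fold change was -0.07 (SE 0.06, 95% interval -0.21 to 0.08, limma adjusted p = 0.388), and without MCDHFD replicate 1 it was -0.13 and passed (limma adjusted p = 0.0474). Within each library Btg1 exceeded Btg2 by 6.50, 5.81 and 6.29 times in ND and by 4.05, 4.41 and 4.41 times in MCDHFD. These ratios did not overlap, with a difference of -0.53 on the log2 scale (SE 0.06, two-sided exact permutation p = 0.1, adjusted p = 0.133 over 4 pairs).

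Tob2, on chromosome 15 from 81848272 to 81858796 (minus strand, ENSMUSG00000048546), was the other member to fall. It was at 2653, 2621 and 2716 normalized counts in ND and at 1963, 1838 and 1843 in MCDHFD. The diets did not overlap. The mean went from 2663 ± 48.4 to 1882 ± 70.9 (SD, n = 3 per diet). The log2 difference was -0.50 (SE 0.05, 95% interval -0.62 to -0.38), with an adjusted p in limma of 4.4e-05. The antisense gene Gm49476 overlaps Tob2 exons, and its reads cannot be told apart.

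Tob1, on chromosome 11, was at 921, 786 and 808 normalized counts in ND and at 851, 794 and 801 in MCDHFD. The diets overlapped (log2 fold change -0.04, SE 0.08, 95% interval -0.21 to 0.14, limma adjusted p = 0.697). The ratio of Tob1 to Tob2 was 0.347, 0.300 and 0.298 in ND and 0.434, 0.432 and 0.435 in MCDHFD. It did not overlap between the diets, with a difference of 0.46 on the log2 scale (SE 0.07, two-sided exact permutation p = 0.1, adjusted p = 0.133 over 4 pairs). Btg3, a further family member, was at 178 to 180.1 normalized counts in ND and at 139.8 to 172 in MCDHFD and did not pass (log2 fold change -0.20, limma adjusted p = 0.168). Its exons overlap those of Cxadr on the other strand, which had 1.95 to 24.6 normalized counts.

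**Figure D2:**
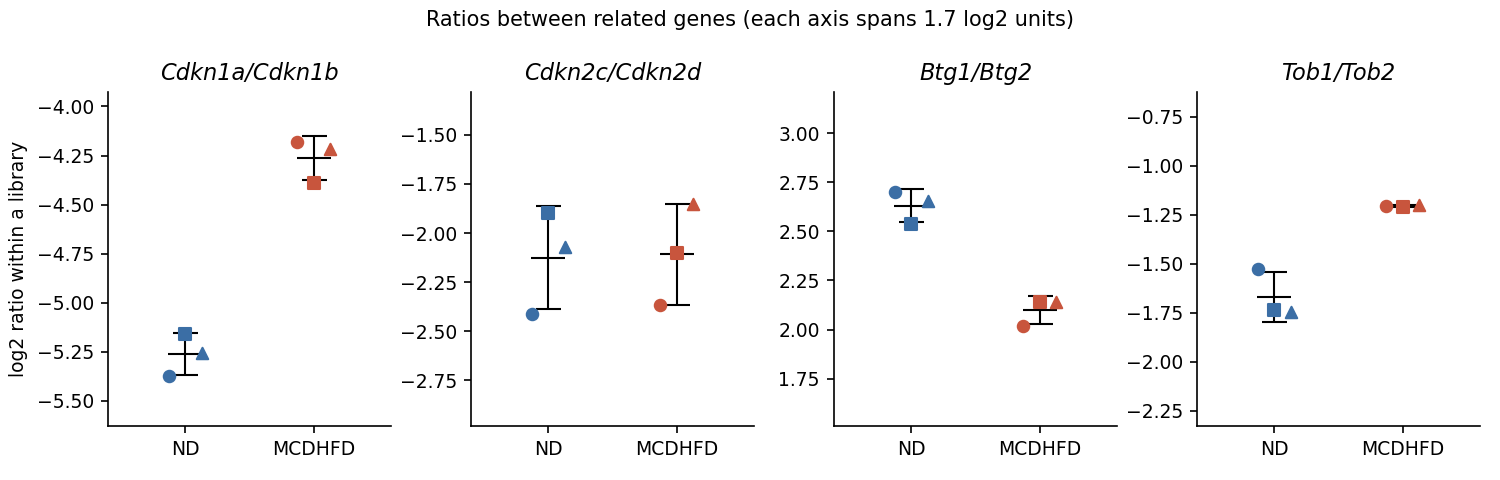
Log2 ratio (vertical axes, all spanning the same range) of 4 pairs of related genes inside each ND (blue) and MCDHFD (red) library, with means and ± 1 SD. Cdkn1a/Cdkn1b and Tob1/Tob2 are higher and Btg1/Btg2 is lower in every MCDHFD library, while Cdkn2c/Cdkn2d overlaps.

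Levels of different genes were compared per kb of annotated exon, a length that can exceed that of the transcript in use. In ND the order was Btg1 (5434 ± 286 normalized counts per kb), Btg2 (1686 ± 42.6), Cdkn1b (855 ± 57.3), Tob2 (399.6 ± 7.27), Tob1 (366 ± 31.7), Cdkn2d (294 ± 7.67), Cdkn2c (39.7 ± 7.08), Cdkn1a (28.2 ± 1.55), Cdkn1c (6.10 ± 1.73) and Cdkn2a. Only the neighbours Tob2 and Tob1 had overlapping libraries. Btg1 lay at the 99.6th percentile of all genes per kb in ND and at the 99.3rd in MCDHFD.

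In MCDHFD the order changed in 2 places. Tob2 went from rank 4 to rank 6 (282 ± 10.6 per kb), below Tob1 (356 ± 13.5) and Cdkn2d (333 ± 26.0), whose libraries overlapped each other but not those of Tob2. Cdkn1a (59.0 ± 8.17 per kb) passed Cdkn2c (45.2 ± 6.72), with no overlap between their libraries. Cdkn1c and Cdkn2a, at the bottom, overlapped.

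**Figure D3:**
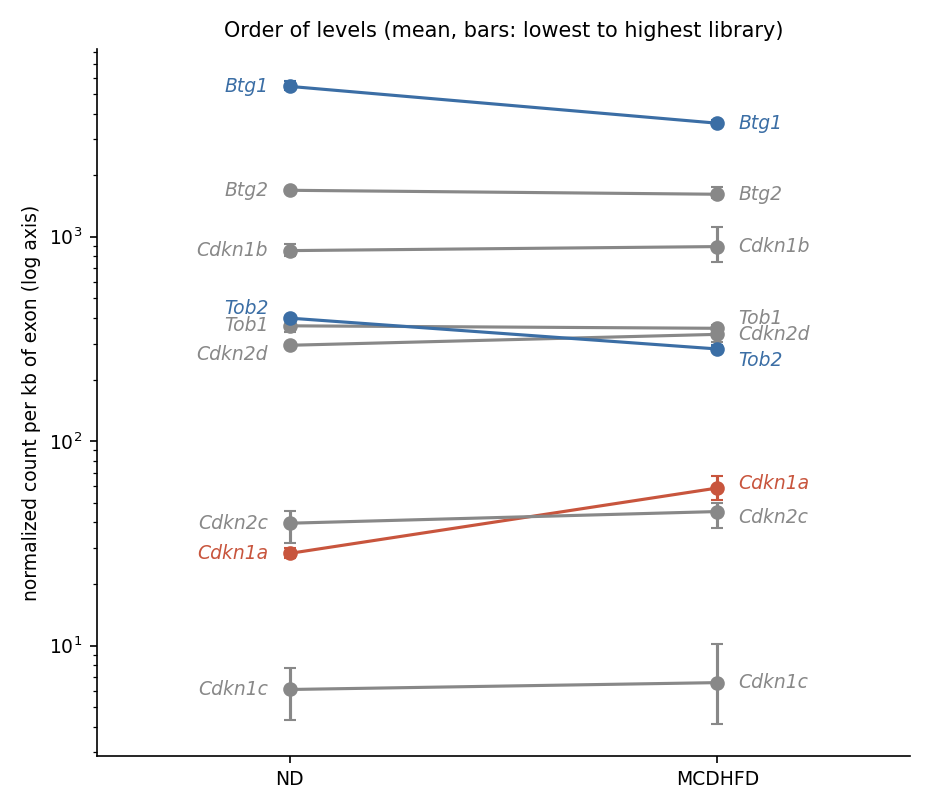
Mean normalized count per kb of exon (vertical log axis) of 9 genes in ND and MCDHFD, with bars from the lowest to the highest library; red marks the gene that rose, blue those that fell and grey those that did not pass. Under the deposited scaling Btg1 falls but stays first, Tob2 drops below Tob1 and Cdkn2d, and Cdkn1a crosses Cdkn2c. Cdkn2a, with libraries at 0, is not drawn.

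These directions rest on the deposited scaling, which sets the median gene near no change. When each library was instead scaled so that the 19 CD8 T cell genes had the same mean log2 value, the median of all tested genes moved by 1.02 on the log2 scale and 86.6% of tested genes passed, 83.2% higher and 3.40% lower. Under that scaling 8 of the 9 genes were higher and none was lower. Btg1 (log2 fold change 0.43) and Tob2 (0.53) were then higher in MCDHFD, though by less than the median gene, and Cdkn1a (2.07) was higher by more. Relative to the median gene the values were -0.59 for Btg1, -0.50 for Tob2 and 1.04 for Cdkn1a. Because this scaling applies 1 factor per library, all genes shifted nearly alike. These relative values could therefore hardly differ from those under the deposited scaling. Btg2 (0.96), Tob1 (0.99), Cdkn1b (1.08), Cdkn2c (1.22) and Cdkn2d (1.20) differed from the median gene by 0.19 or less, and Cdkn1c (1.001, limma adjusted p = 0.0525) did not pass. The within-library ratios above do not depend on this choice.

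**Figure D4:**
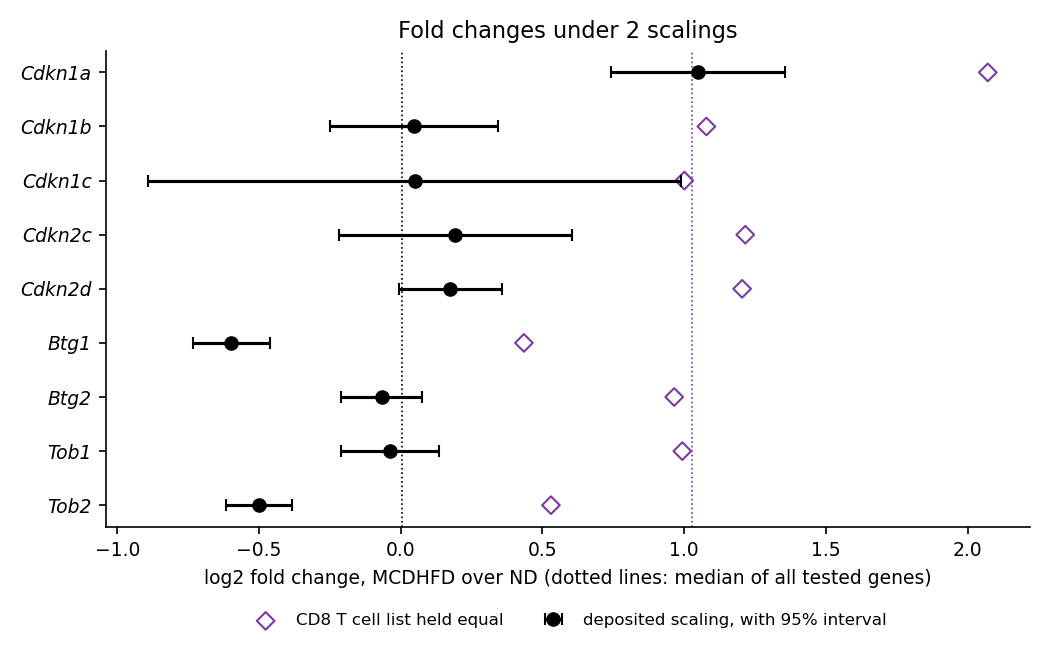
Log2 fold change of the 9 tested genes (horizontal axis) under the deposited scaling, as black points with 95% limma intervals, and with the CD8 T cell list held equal, as open diamonds; dotted lines are the medians of all tested genes. Cdkn1a lies to the right and Btg1 and Tob2 to the left of the median line under both scalings. Holding the CD8 T cell list equal shifts all genes nearly alike, so this placement could hardly change and is no separate check.

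The genes on which these inhibitors act moved unevenly under the deposited scaling, to which the counts below belong. Under it 30.3% of all tested genes were higher and 28.1% lower, shares to be read beside every list count below. With CD8 T cell genes held equal, 83.2% of all tested genes were higher. With CD8 T cell genes held equal, all 17 RB and E2F genes, all 24 replication and mitosis genes and all 16 CCR4-NOT and poly(A) genes were higher, as were 7 of the 9 CDKs and cyclins (1 lower), 20 of 23 p53 genes, 10 of 11 FOXO and KLF genes and 12 of 13 turnover genes. Of 9 CDKs and cyclins of G1 and S phase, 5 were higher and 1 lower in limma (median log2 fold change 0.39, against 0.00 for all tested genes). Cdk6, a target of the INK4 proteins, rose from 810.1 ± 66.1 to 2041 ± 138 normalized counts (log2 fold change 1.33). Cyclin E2, Ccne2 (1.39), and cyclin A2, Ccna2 (1.06), partners of CDK2, rose. The D-type cyclin Ccnd1 fell (-1.64), from 253 to 297 in the ND libraries to 69.3 to 107 in the MCDHFD libraries, while Ccnd2, the most abundant D-type cyclin gene in counts, was at 4770.3 ± 451 and 4698 ± 199 and did not pass. Ccnd3 varied 3-fold or more between libraries of the same diet, from 764 to 2363 in ND and from 737 to 2867 in MCDHFD, so a difference in it could not be resolved.

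Of 17 RB, E2F and DREAM complex genes, 5 were higher and 1 lower (median -0.03), with 3 lower without ND replicate 3 and 4 lower under quantile scaling. E2f8 (log2 fold change 2.02), E2f2 (1.82) and E2f1 (0.61) rose. Rbl1, which encodes the RB relative p107, fell (-0.43; 0.60 with CD8 T cell genes held equal), and Rb1 (-0.04) and Rbl2 (-0.10), the relative found in resting cells, did not pass. Of 24 replication and mitosis genes, 11 were higher and 3 lower (median 0.29), with Ccnb1 (1.25), Cdk1 (1.24), Rrm2 (1.21) and Mki67 (1.11) the largest. The 3 lower were the replication genes Mcm4 (-0.18), Mcm5 (-0.33) and Mcm6 (-0.22), all higher with CD8 T cell genes held equal. Mki67, the proliferation marker, went from 1300.5 ± 102 to 2833 ± 440 normalized counts. The erythroid and neutrophil shares given above were higher in the same libraries, and their part in these values was not tested.

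The list for turnover of CDK inhibitor proteins had 6 of 13 genes higher and none lower (median 0.20). Not all of the 6 are particular to these inhibitors: they include Fbxw7 (0.20), better known for removing cyclin E, and the shared ligase scaffold Cul1 (0.30). The count of higher genes was 4 to 5 whenever 1 library was left out. In edgeR, and without ND replicate 1 or ND replicate 3, 1 gene was lower. Skp2, the ubiquitin ligase subunit that recognises p27, rose by 2.48 on the log2 scale, from 196 ± 34.0 to 1096 ± 177 normalized counts (adjusted p = 2.17e-06 in limma), beside the p27 transcript Cdkn1b, which did not pass. Its cofactor gene Cks1b (0.51) rose in the 6-library test, but lost the call under 6 alternatives. These included edgeR (adjusted p = 0.0614) and leaving out, singly, ND replicate 1, ND replicate 3, MCDHFD replicate 2 or MCDHFD replicate 3. Cks2 (1.06) and Dtl (0.96), which encodes the subunit that targets p21 in S phase, rose.

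Of 23 tested p53 targets and regulators other than Cdkn1a and Btg2, 4 were higher and 5 lower (median -0.01). Trp53 itself fell by 1.17 on the log2 scale, from 2442 ± 28.9 to 1085 ± 34.5 normalized counts, a call it lost with CD8 T cell genes held equal (-0.14). Plk2 (-0.65) fell, and was higher with CD8 T cell genes held equal (0.38). Gdf15, a secreted stress factor, rose from 297 ± 53.2 to 3670.3 ± 343 (3.63) and Sesn2 (0.88) rose. Mdm2 (-0.05), Zmat3 (-0.09) and Bax (-0.17), p53 targets too, did not pass.

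Of 11 FOXO and KLF factors, 4 were higher and 2 lower (median 0.11), with 4 lower under quantile scaling. Foxo1 fell by 0.96 on the log2 scale, from 6223 ± 287 to 3202 ± 240.2 normalized counts, and Foxo3 (-0.46) fell; both encode factors known to activate Cdkn1b. With CD8 T cell genes held equal Foxo1 did not pass (0.071) and Foxo3 was higher (0.57). Klf10 (2.54) and Klf4 (1.26), a factor known for activating Cdkn1a, rose. The genes of the CCR4-NOT complex and of poly(A) shortening were higher in 2 and lower in 4 of 16 (median 0.03). Tnks1bp1 (-0.50) and the scaffold gene Cnot1 (-0.24) fell, but were higher with CD8 T cell genes held equal (0.52 and 0.79). Cnot11 (0.33) and the deadenylase gene Pan2 (0.32) rose, and the deadenylases Cnot7 (-0.06) and Cnot8 (0.07), the direct partners of BTG and TOB proteins, did not pass.

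**Figure D5:**
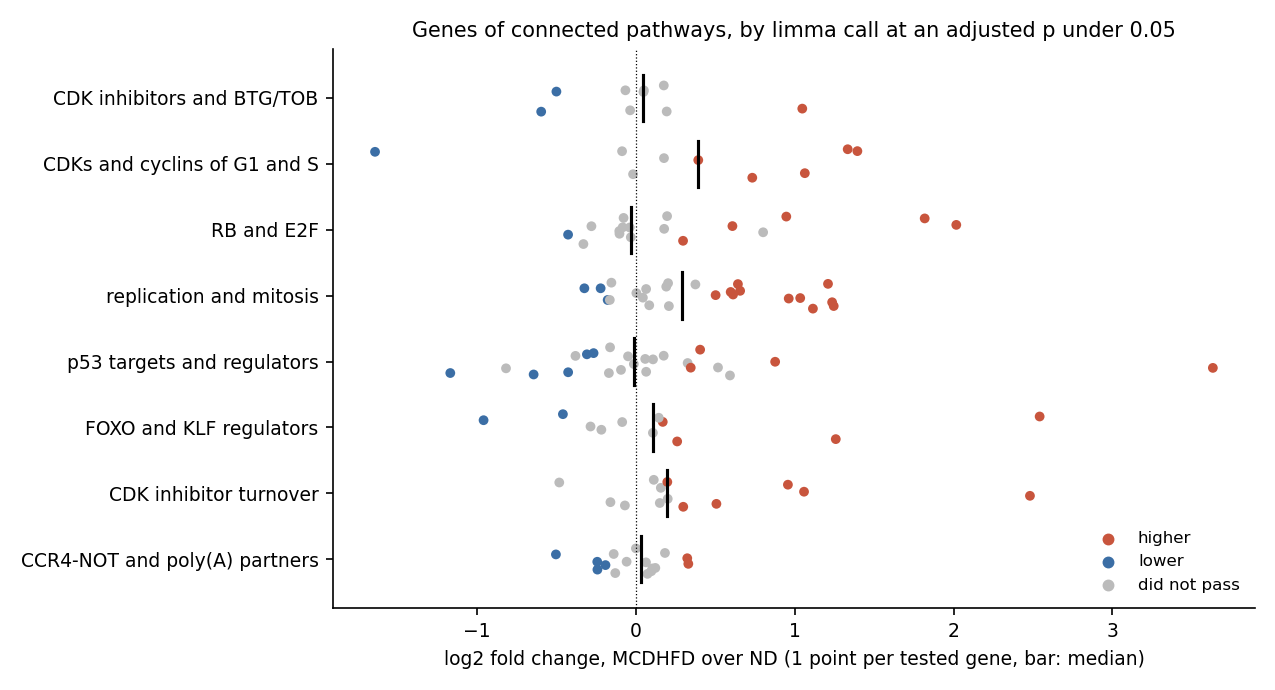
Log2 fold change in MCDHFD over ND (horizontal axis) of each tested gene of the set and of 7 connected lists; points are red where higher, blue where lower and grey where limma did not pass, and black bars are medians. The set's 9 tested genes have a narrower spread than the CDK and cyclin genes, whose values run from -1.64 to 1.39.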

How the data were processed

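Total RNA of splenic CD8+ T cells was extracted with TRIzol and sequenced after preparation with 1 of 2 kits, for whole RNA or for mRNA (per the labels' protocols). Not stated in these sources are the kit of each library, the aligner, counter, strand setting, annotation and the way the cells were isolated. The genome build was mm10, per the submitters' processing notes. The deposited values are a signal, read counts that the authors scaled by 1 factor per library, per the file headers and the values.

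In all 6 libraries 100% of the values were whole multiples, within 0.01, of the value of 1 read, giving 13188812 to 15482458 reads. The count tests used 5 libraries: ND replicate 3, where 1 read was worth 0.990, was kept out by choice because so small a departure from 1 was not accepted as a sure recovery, not because its values failed to come out whole. Symbols matched 19202 of 19323 identifiers. Positions and exon lengths are from GENCODE M21. Promoter windows, the 250 bases before a start, are from RefSeq on GRCm38.p6, found for 9 of the 10 genes.

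Because the values are scaled, differences were tested mainly by limma 3.58.1 with a trend on mean level (R 4.3.3), diet as the only term, on log2(value + 1), over 13430 genes with a mean of at least 10, with Benjamini-Hochberg adjustment over all of them at 0.05. Related genes were compared by two-sided exact permutation tests of their within-library ratio (20 arrangements, SciPy 1.17.1). Alternatives were pseudocounts of 0.5 and 5, a filter at a mean of 50 and none, TMM and quantile scaling, equal CD8 T cell genes, library weights, a replicate block, each library left out, and edgeR 4.0.16 and DESeq2 1.42.0 on recovered reads. The genes followed, the lists and the alternatives were chosen with earlier results of these data known. Named genes were the 10, Cdkn2b, Btg3, and up to 4 passing genes of largest change with a mean of at least 50 per pathway list; for marker lists, up to 3 genes of highest mean were eligible. Ccnd2, Ccnd3, Rb1, Rbl2, Mdm2, Zmat3, Bax, Cnot7, Cnot8, Ccr2, Ly6c2, Lyz2, Mcm4, Mcm5 and Mcm6 were added after their values were seen.

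Same-diet libraries with recovered reads differed by more than sampling noise (chi-square over its degrees of freedom 6.46 to 12.3), and each was counted as 1 sample. The procedure was tested on simulated data.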

Additional observations from a re-analysis of the deposited data

How the results depend on the processing

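Cdkn1a stayed higher past the threshold under every alternative run, and Btg1 and Tob2 stayed lower under all but the scaling to equal CD8 T cell genes, under which 8 members were higher and 0 lower. That scaling turned Btg1 (0.43), Btg2 (0.96), Tob1 (0.99), Tob2 (0.53) and Btg3 (0.83) to higher, as well as Rbl1 (0.60), Plk2 (0.38), Foxo3 (0.57), Tnks1bp1 (0.52) and Cnot1 (0.79). Foxo1 (0.071) and Lck (0.056), which is 1 of the genes held equal, changed sign and did not pass. Of all tested genes, 11179 were then higher and 456 lower, where 4065 and 3772 were so before. Leaving out each library gave 1 to 2 members higher and 2 to 3 lower, and 7072 to 7673 of all tested genes called. Log2 fold changes close to 0 changed sign in such omissions: Cdkn1b ran from -0.12 to 0.16, Cdkn1c from -0.29 to 0.31 (-0.16 without ND replicate 1) and Tob1 from -0.082 to 0.032. Under quantile scaling Cdkn1c was at -0.25 and Btg3 passed (-0.30, limma adjusted p = 0.0496). The difference in the Cdkn2c/Cdkn2d ratio ran from -0.12 (without ND replicate 1; -0.11 without MCDHFD replicate 3) to 0.15. The other ratio differences kept their direction, at 0.95 to 1.06 for Cdkn1a/Cdkn1b, -0.58 to -0.49 for Btg1/Btg2 and 0.42 to 0.54 for Tob1/Tob2. The cause of these changes was not tested.

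The replicate number as a block left 1 member higher and 2 lower and called 7707 genes. Deviations of same-numbered libraries correlated at 0.036, 0.062 and 0.006, and those of differently numbered libraries at -0.057 to 0.02. What the replicate number stands for is not said, and values this small cannot decide whether same-numbered libraries share a batch. Outside the CD8 scaling, 538 of 544 values of other named genes kept direction and call, all 6 exceptions being Cks1b, and 213 of 224 list counts stayed within 1.5 times. Of the exceptions, the RB and E2F list had 3 genes higher and 2 lower in DESeq2, 3 lower in edgeR and without ND replicate 3, and 4 lower under quantile scaling, and the turnover list had 1 lower in edgeR, with library weights, with the block and without ND replicate 1 or 3. With 3 libraries per diet, the intervals in the text bound what could be resolved, and Cdkn1c (9 to 21 reads) and Cdkn2a (0 to 6 reads) rest on few reads.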
